A study of Mus musculus with 4 samples.

Results

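The constitutive proteasome genes are the genes for the subunits, assembly factors and activators of the proteasome, chosen by symbol from the gene count table (Psma, Psmb, Psmc, Psmd, Psme, Psmf and Psmg with a number), without Psmb8, Psmb9 and Psmb10 of the immunoproteasome. There were 47 such genes among 24943 in the table. Of these, 46 passed the filter of 1 CPM (counts scaled to library size) or more in at least 1 library, and Psmb11 did not. The choice by symbol holds more than subunits of the constitutive particle. It brings in Psmc3ip, a recombination factor that is no proteasome part, Psma8, a subunit known from the testis, and Psmb11, the subunit of the thymic cortex.

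The proteasome degrades proteins tagged with ubiquitin. Its 20S core is a barrel of alpha and beta rings, and the beta 1, beta 2 and beta 5 subunits (Psmb6, Psmb7 and Psmb5) cut the substrate. The 19S regulatory particle caps the barrel: its base holds ubiquitin receptors and a ring of ATPases that unfold and thread the substrate, and its lid holds the enzyme that removes ubiquitin. In lymphocytes and under interferon the catalytic subunits can be replaced by Psmb9, Psmb10 and Psmb8, giving the immunoproteasome, which favours peptides for MHC class I. Dividing and secreting cells, plasma cells above all, depend on proteasome capacity, and inhibitors of the beta 5 site are used against lymphoid tumours.

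Poly(A) RNA was profiled in 4 samples of mouse spleen enlarged by tumour, from a series on the role of a TP63 fusion in mouse lymphoma. They are called lymphoma 1 (titled GW19), 2 (GW95), 3 (GW255) and 4 (GW328). All 4 carry the labels lymphoma, mouse spleen cells, transgenic mouse and enlarged spleen with tumor, so they form 1 group; the labels name no transgene, promoter, age or control group, and no sort for tumour cells. A single group allows no comparison of conditions, so no p-values are given. Whether each sample is its own animal is not stated, so the spread may be partly technical.

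The libraries held 7773546 to 9602413 counts. Marker genes of B cells summed to 64.4, 1313, 4132 and 5748 CPM in lymphomas 1 to 4 over 8 genes, and those of T cells to 4789.9, 3717, 402 and 952 CPM over 8 genes, so lymphoid markers were present in each library in a mix that differed between them. Red cells had been lysed, and erythroid markers summed to at most 4.91 CPM and stromal markers to at most 16.7 CPM. The haemoglobin genes Hbb-b1 and Hba-a1 were listed at 0 in the count table, and whether the counting could register their reads was not tested. Lymphomas 1 and 2 may share material, which was not tested. Over the 71 genes at 20 CPM or more in lymphoma 1 and under 5% of that in lymphomas 3 and 4, lymphoma 2 lay at a median of 0.669 of lymphoma 1, with an interquartile range of 0.645 to 0.711. Over all 6470 genes at 20 CPM or more in lymphoma 1, that ratio had a median of 0.8755 (interquartile range 0.7689 to 1.074). The lead counts below are therefore also given without lymphoma 2.

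Most proteasome genes had their top value in lymphoma 1 and their bottom value in lymphoma 4. Of the 46 genes that passed the filter, 42 were lowest in lymphoma 4, against 33.2% of all 13543 genes tested. As scaled here, 40 were highest in lymphoma 1, against 29.4%. All 31 subunit genes of the 20S core (14, without Psma8) and the 19S particle (17) were among those lowest in lymphoma 4, with a median difference of -2.46 log2 from lymphoma 1 in the core, as in Psmb6, Psma6 and Psmb3, and -1.93 in the 19S particle, as in Psmc1 and Psmd3. With plain library totals 29 of the 31 were, Psmd2 and Psmd11 being the exceptions. The 4 genes not lowest in lymphoma 4 were lowest in lymphoma 3 (3 genes, 22.1% of all) or lymphoma 2 (1 gene, 5.25%), and 0 in lymphoma 1 (39.5%). The 6 that did not peak in lymphoma 1 peaked in lymphoma 3 (4 genes, 30.3%), lymphoma 2 (1 gene, 6.31%) or lymphoma 4 (1 gene, 34% of all). The place of the peak depended on the scaling. In FPKM (fragments scaled to transcript length and library size), Psmb6, Psmd9, Psmd10, Psmd12, Psme3 and Psmf1 peaked in lymphoma 3 instead of lymphoma 1. Psmb6 was at 256.2 and 257.1 FPKM in lymphomas 1 and 3, and Psmd12 at 55.2 and 63.2 FPKM. The full order of lymphomas 1, 2, 3 and 4 from high to low was seen in 30 of the 46 genes and in 14.2% of all genes. The median of the 46 genes was 8.13, 7.70, 7.35 and 6.19 log2(CPM + 1) in lymphomas 1 to 4, whereas that of all genes tested was 4.23, 4.56, 4.59 and 4.44. The median gene of the set was 3.92-fold lower in lymphoma 4 than in lymphoma 1 on the CPM + 1 scale, and the median ratio of lymphoma 1 to lymphoma 4 over all genes was 0.923. In bulk RNA, fewer cells of a type and less RNA per cell cannot be told apart.

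The lower level in lymphoma 4 made up most of the spread. Lymphoma 1 was 2-fold or more above lymphoma 4 in 38 of 46 genes (24.6% of all genes), and lymphoma 4 was 2-fold or more above lymphoma 1 in 0 of 46 (31.2% of all genes). Lymphoma 2 exceeded lymphoma 4 by that fold in 34 genes (19.8%) and lymphoma 3 did so in 25 (23.2%). In the reverse direction the counts were 0 of 46 for lymphoma 4 above lymphoma 2 (18.1%) and above lymphoma 3 (22.7%). Lymphoma 1 was 2-fold or more above lymphoma 3 in 10 genes (15.3%), and lymphoma 3 above lymphoma 1 in 1, Psmc3ip (25.6%). Lymphoma 2 exceeded lymphoma 3 so in 2 genes (16.8%) and lymphoma 3 exceeded lymphoma 2 in 1 (14.8%). Between lymphomas 1 and 2 the count was 0 in either direction, against 0.229% of all genes for lymphoma 1 above 2 and 15.3% for lymphoma 2 above 1. The top and bottom libraries were 2-fold or more apart in 39 of 46 genes, close to the 75.6% of all genes, and 4-fold or more in 22, against 35.7%. Without lymphoma 4, the 2-fold range was left in 12 of 46 genes, against 51.5% of all genes. Without lymphoma 2, 42 of 46 genes were lowest in lymphoma 4 (33.8% of all genes) and 40 were highest in lymphoma 1 (34.1%). Lymphoma 1 was then 2-fold or more above lymphoma 4 in 38 genes (25% of all genes), and 40 had a 2-fold range, nearer to the 74.7% of all genes.

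**Figure D1:**
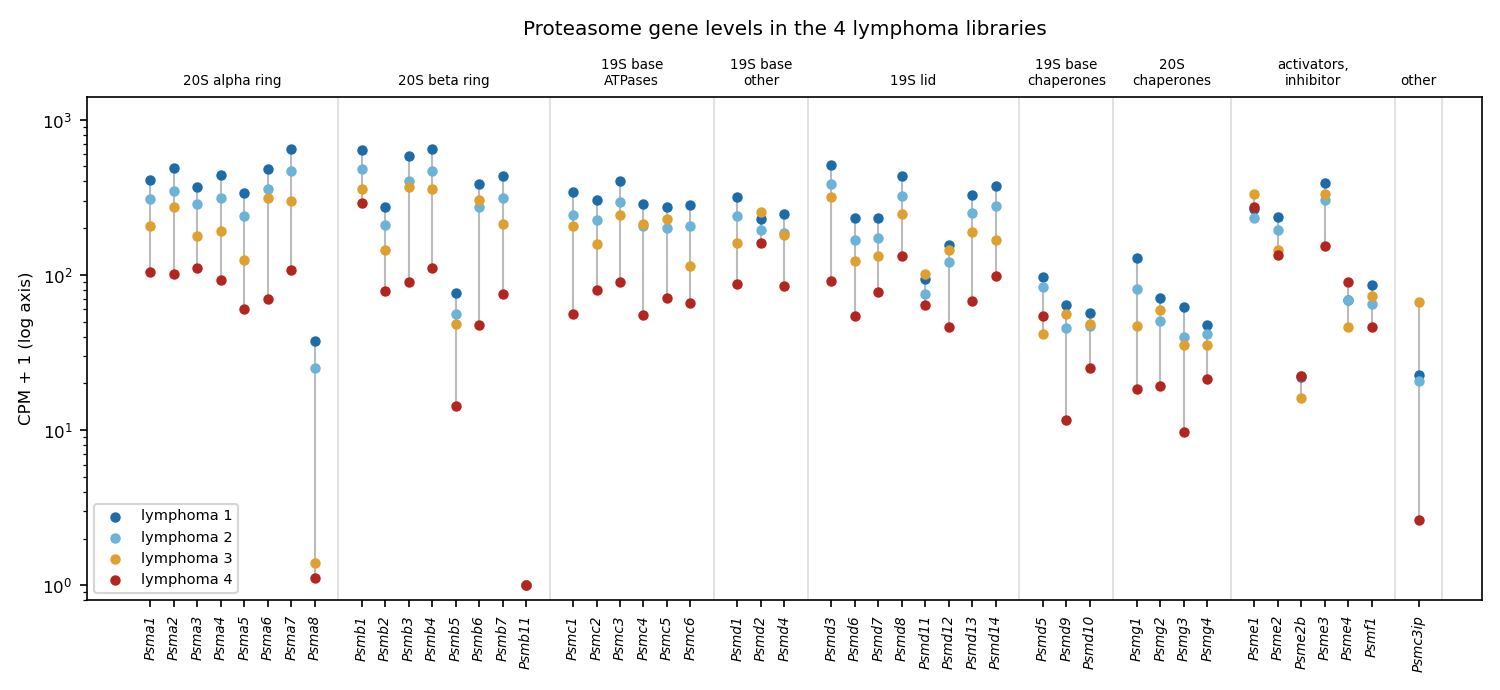
Level of each of the 47 genes in the 4 libraries as CPM + 1 on a log axis, grouped by part of the proteasome, with 1 point per library and a grey line from the lowest to the highest. Lymphoma 4 (red) lies lowest for 42 of the 46 genes that passed the filter, and the activator genes at the right show the least separation.

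The set is of abundant genes with short transcripts, and both properties moved with the difference between libraries. Among the 4309 genes with a mean of 50 CPM or more, 47.9% were lowest in lymphoma 4, against 34 of the 37 proteasome genes at that level, and lymphoma 1 was 2-fold or more above lymphoma 4 in 36.4% of such genes and in 30 of the 37. At that level 33 of the 37 were highest in lymphoma 1 (46.5% of such genes), and 26 kept the order of lymphomas 1 to 4 (26.4%). A 2-fold range was found in 31 (72.4%) and a 4-fold range in 17 (32.4%). The median exonic length was 1505 bases for the proteasome genes and 3160 bases for all genes tested. Across 13409 genes with a length, the difference of lymphoma 4 from lymphoma 1 had a Spearman rho of 0.32 with exonic length, a description across genes of 2 libraries. The median difference of all genes was -0.84 in the shortest of 10 length bins (up to 1232 bases) and 1.35 in the longest. The 15 proteasome genes in that shortest bin had a median of -2.53, and the 12 in the next bin a median of -2.04, against -0.58 for all genes of that length. With the length trend removed, 40 of 46 genes were lowest in lymphoma 4 and the median difference between lymphomas 4 and 1 was -1.53, against 0.02 for all genes. Removing the trend thus took off part of the difference and left most of it.

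**Figure D2:**
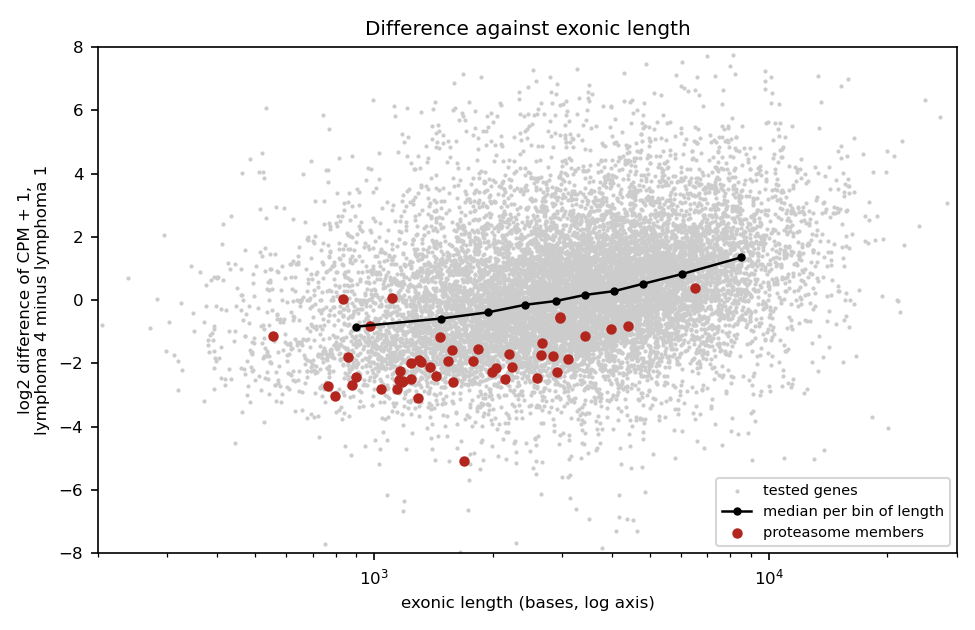
Difference of lymphoma 4 from lymphoma 1, as log2 of CPM + 1, against exonic length on a log axis, for all tested genes (grey), the median of each of 10 length bins (black) and the proteasome genes (red). Most red points lie below the black line, which runs from -0.84 to 1.35.

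Expression of cell cycle genes and of other cell types also followed the libraries. Over 12 proliferation genes, 11 were lowest in lymphoma 4, against 33.2% of all genes and 47.9% of those with a mean of 50 CPM or more. Their sums were 3446, 2567, 4099 and 495 CPM in lymphomas 1 to 4. Of these 12 genes, 6 were highest in lymphoma 1 (29.4% of all genes) and the rest in lymphoma 3. The highest sum was in lymphoma 3, where Mki67 was at 668 CPM and Top2a at 636 CPM, against 29.6 and 192 CPM in lymphoma 1. Myeloid markers, all 8 detected, summed to 138, 396, 188 and 800.4 CPM. They were at least 2-fold higher in lymphoma 4 than in lymphoma 1 for 7 of 8 (31.2% of all genes). The part of proliferation, of cell mixture and of library differences in the proteasome levels was not tested.

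The alpha ring, which gates the 20S core, had a median difference of -2.38 log2 between lymphomas 4 and 1 over 8 genes, and its 7 genes of the common particle were each lowest in lymphoma 4 and in the order of lymphomas 1 to 4. Psma7, the alpha 4 subunit gene (chromosome 2, 180036374 to 180042433, minus strand, GRCm38), was the most abundant at 645, 465, 298 and 107 CPM in lymphomas 1 to 4, a mean of 379 ± 229.8 CPM (SD, n = 4). It was 5.96-fold higher in lymphoma 1 than in lymphoma 4 on the CPM + 1 scale, and the ratio of CPM was 6.01 with a counting interval of 5.61 to 6.44. Psma6, which encodes alpha 1, was at 483, 358, 312 and 68.8 CPM, a 6.93-fold difference between lymphomas 1 and 4, the largest among the 7 alpha genes of the common particle as scaled here. With the length trend removed Psma2 (-2.22 log2) passed Psma6 (-1.90), and in FPKM Psma7 and Psma6 were level (-2.54 log2 each). The removal used an exonic length of 2911 bases for Psma2. Its counts divided by FPKM and exonic kilobases were 3.42, against a median of 10.2 over the 46 genes. Whether that length overstates the transcript counted was not tested. The CPM of Psma6 in lymphoma 3 stood much nearer to that in lymphoma 2 than to that in lymphoma 4. Psma5 (alpha 5) was at 336, 239, 123 and 58.9 CPM and so was already low in lymphoma 3. Psma2 (alpha 2) was at 489, 345, 273 and 101 CPM, and Psma4 (alpha 3) at 436, 312, 190.2 and 91.1 CPM. Psma1 and Psma3, for alpha 6 and alpha 7, showed smaller differences of -1.98 and -1.75 log2(CPM + 1) between lymphomas 4 and 1. These 7 genes kept one order of libraries while the size of the step varied.

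The beta ring, which holds the active sites, had a median difference of -2.53 over its 7 detected genes, all lowest in lymphoma 4. Psmb6, the gene of the constitutive beta 1 site (chromosome 11, 70525367 to 70527858, plus strand), was at 382, 272, 304 and 46.3 CPM, 8.10-fold lower in lymphoma 4 than in lymphoma 1. This was the largest difference among the 31 genes of the 20S core and 19S particle, except with the length trend removed. There Psma2 (-2.22 log2) passed Psmb6 (-2.12), with the limit on the length of Psma2 given above. Psmb7, the beta 2 site gene, was at 435, 314, 211 and 74.5 CPM, and it shares 405 exonic bases with Nek6 on the other strand. Psmb5, the beta 5 site gene, was at 75.7, 54.6, 47.4 and 13.3 CPM, a 5.36-fold difference. All 3 catalytic genes were thus more than 5-fold lower in lymphoma 4 than in lymphoma 1 as scaled here. For Psmb5, Psmb6 and Psmb7 the differences were -1.96, -2.54 and -2.05 log2 with plain library totals and -1.53, -2.12 and -1.63 with the length trend removed, where none reached 5-fold. Among the non-catalytic beta genes, Psmb3 was at 585, 402, 368 and 89.4 CPM and Psmb4 at 649.6, 469, 355 and 109 CPM. They were 6.48-fold and 5.91-fold lower in lymphoma 4 than in lymphoma 1. Psmb1 (beta 6), with the highest mean of the set at 441 ± 154 CPM (SD, n = 4), departed from them at 639.5, 481, 354 and 289.8 CPM, a difference of -1.14 log2. With CPM of the plain library total in place of scaled CPM, its difference was -0.66 log2 and so under 2-fold. Psmb2 (beta 4) had a difference of -1.80, which became -0.91 with the length trend removed, while that of Psmb1 became -1.31.

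Per length of transcript, the 14 genes of the 20S core spanned 7.37-fold in lymphoma 1, from Psma3 at 104 FPKM (fragments scaled to transcript length and library size, the second deposited table) to Psmb3 at 764 FPKM. The span was 6.84-fold in lymphoma 2, 10.6-fold in lymphoma 3 and 6.08-fold in lymphoma 4. The median over the 14 genes was 319, 257, 228 and 58.6 FPKM, and that of the 17 genes of the 19S particle was 125, 107, 79.3 and 28.2 FPKM. Psmb3 was the highest and Psma3 the lowest core gene per length in lymphomas 1 to 3. In lymphoma 4 these places were taken by Psmb1 (192 FPKM) and Psmb6 (31.6 FPKM). The subunits, which enter the particle in equal numbers, therefore differed in RNA level in each library, and their ranking in lymphoma 4 was not that of the other libraries. Around the mean over libraries, the 31 genes of core and 19S particle scattered with an SD of 0.22, 0.17, 0.26 and 0.39 log2 in lymphomas 1 to 4. Across these 31 genes, the difference of lymphoma 4 from lymphoma 1 had a Spearman rho of 0.66 with exonic length. Psmb1 and Psmb6 have exonic lengths of 3427 and 798 bases, over all annotated exons merged. The counts per FPKM and kilobase of Psmb1 were 3.20, against a median of 10.2 over the 46 genes. Whether its exonic length overstates the transcript counted was not tested. Their differences were -1.14 and -3.02 log2 as scaled here, and -1.31 and -2.12 with the length trend removed. The part of length in the ranking and in the scatter was not tested. Together these 31 genes took 0.942, 0.793, 0.693 and 0.317% of all counts. Counts per exonic kilobase instead put Psmb5 lowest of the 14 core genes, at a mean of 53.1 CPM per kilobase, and Psmb3 again highest at 471. Psmb5 has a processed pseudogene copy, Gm3375, at 98.9% identity over 796 bases, and its counts per FPKM and kilobase were 2.21, the lowest of the 46 genes (median 10.2, highest 17.1). Psmb5 also shares 109 exonic bases with Mir686 on the same strand. How much of its low value comes from reads shared with the copy or with Mir686 was not tested.

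**Figure D3:**
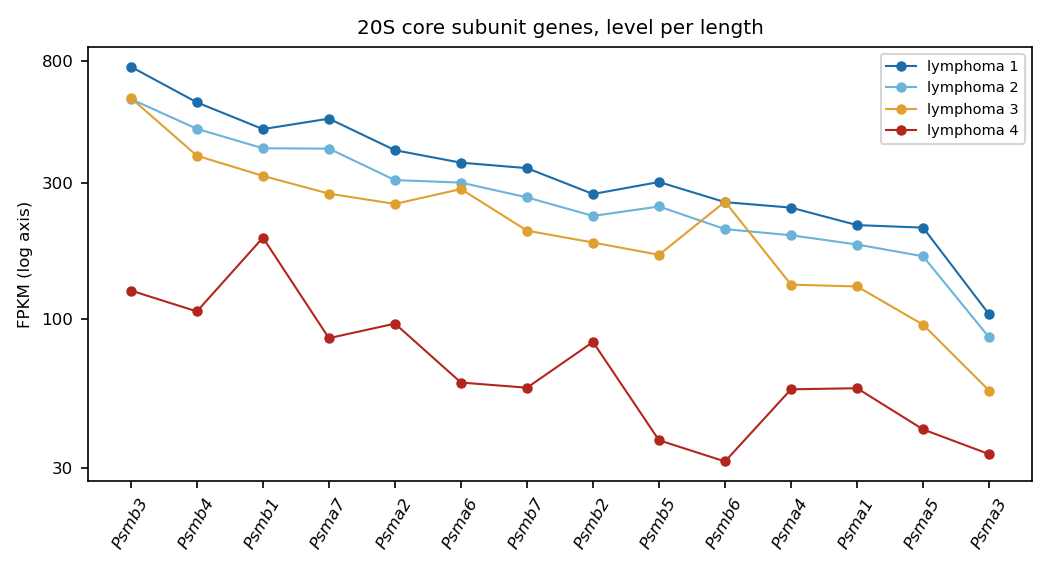
FPKM of the 14 genes of the 20S core on a log axis, ordered by their mean, with 1 line per library. The line of lymphoma 3 meets that of lymphoma 2 at Psmb3 and that of lymphoma 1 at Psmb6, and that of lymphoma 4 lies below all with Psmb1 at its top and Psmb6 at its bottom.

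The RNA of the immunoproteasome genes was set against that of their constitutive counterparts as ratios within each library, which need no scaling between libraries. Such ratios of bulk RNA do not measure replacement of subunits in the particle. All 3 ratios were highest in lymphoma 4. Psmb9 over Psmb6, per exonic kilobase, was 0.154, 0.218, 0.324 and 2.31 in lymphomas 1 to 4, with an exact 95% counting interval of 2.08 to 2.58 in lymphoma 4. Psmb10 over Psmb7 was 0.424, 0.459, 0.514 and 1.42, with an interval of 1.29 to 1.57 in lymphoma 4. Both pairs thus had more RNA of the constitutive gene in lymphomas 1 to 3 and more of the immunoproteasome gene in lymphoma 4. Psmb8 over Psmb5 was 4.96, 5.41, 2.80 and 14.2 from counts, which is 2.31, 2.43, 1.48 and 3.83 on the log2 scale. From FPKM its log2 values were 0.47, 0.58, 0.076 and 2.59, so its level depended on the table and its highest library did not. In FPKM the other 2 ratios in lymphoma 4 were 5.56 and 1.33. The intervals cover counting error only.

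The immunoproteasome genes themselves differed less between lymphomas 1 and 4 than their partners. Psmb8 was at 680.2, 535, 240.0 and 343 CPM, lowest in lymphoma 3. Psmb9 was at 99.3, 101, 167 and 181 CPM, lowest in lymphoma 1, and Psmb10 at 208, 163, 122 and 119.9 CPM, level between lymphomas 3 and 4. The differences of lymphoma 4 from lymphoma 1 were -0.98, 0.86 and -0.79 log2 for these 3 genes, against -2.42, -3.02 and -2.53 for Psmb5, Psmb6 and Psmb7. Psmb8 sat at the edge of 2-fold, at -1.01 log2 without lymphoma 2 or with no filter. With plain library totals the 3 differences were -0.50, 1.34 and -0.31 log2, and with the length trend removed -0.39, 1.46 and -0.20, so Psmb9 was then over 2-fold higher in lymphoma 4. Of cells that can hold immunoproteasomes, myeloid and B cells had their highest marker sums in lymphoma 4. Markers of T cells, also lymphocytes, went the other way, with 4789.9 CPM in lymphoma 1 and 952 CPM in lymphoma 4. The part of these cells in the ratios was not tested. Psmb9 shares 212 exonic bases with Tap1 on the other strand, and the strand setting of the counting is not given in the sources used here.

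**Figure D4:**
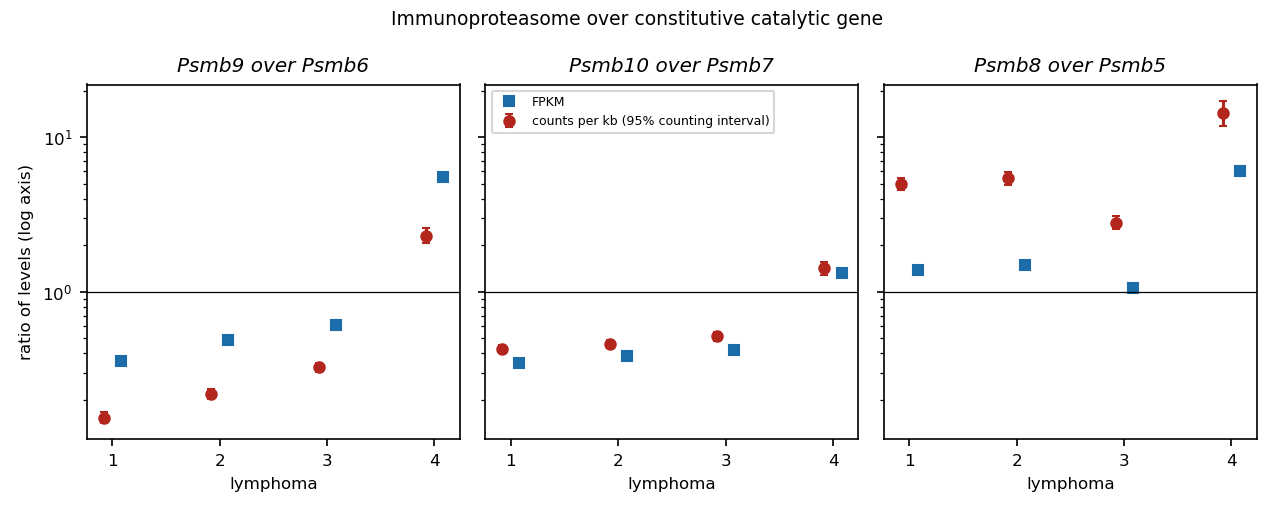
Ratio of the immunoproteasome gene to the constitutive gene of each catalytic site in lymphomas 1 to 4 on a log axis, from counts per exonic kilobase (red, with exact 95% counting intervals) and from FPKM (blue). In each of the 3 panels lymphoma 4 is highest, and in that of Psmb8 over Psmb5 the 2 tables lie apart.

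Psma8 stood apart from the rest of the ring. It encodes an alternative alpha 4 subunit known from the testis, where it replaces Psma7 in the proteasomes of spermatocytes. It held 291, 215, 4 and 1 counts in lymphomas 1 to 4, which make 36.8, 24.0, 0.39 and 0.11 CPM. The exact Poisson 95% bounds were 32.7 and 41.2 CPM in lymphoma 1, and 20.9 and 27.4 in lymphoma 2. In lymphoma 3 they were 0.11 and 1.0, and in lymphoma 4 0.0028 and 0.61. The gene was thus clearly counted in lymphomas 1 and 2 and at 4 counts or fewer in lymphomas 3 and 4, where a floor of 3 counts is 0.294 and 0.330 CPM. The ratio of lymphoma 1 to lymphoma 3 was 93.7, with a counting interval of 36.2 to 346. Per exonic kilobase Psma8 reached 3.98% of Psma7 in lymphoma 1 and 3.60% in lymphoma 2, and 2.28 and 2.09% in FPKM. Its value in lymphoma 2 was 0.652 of that in lymphoma 1, inside the interquartile range of the 71 genes above, whose criteria Psma8 meets, so these 2 libraries may not be independent evidence of it. The search of annotated transcripts found no other gene with a match of 95% identity over 200 bases or more. Summed T cell markers were also highest in lymphomas 1 and 2, and their part in this was not tested. Psmb11, the beta 5 subunit of thymic cortical epithelium, held 0 counts in each library, with exact Poisson 95% upper bounds of 0.466, 0.411, 0.362 and 0.406 CPM; the floor of 3 counts is 0.379, 0.335, 0.294 and 0.330 CPM.

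The ATPases of the 19S base, which unfold substrates, had a median difference of -2.13 between lymphomas 4 and 1, and all 6 were lowest in lymphoma 4. Psmc3 (Rpt5) was the most abundant at 401, 293, 243 and 89.2 CPM, a mean of 256 ± 129.7 CPM (SD, n = 4). Psmc1 (Rpt2) was at 340.4, 242, 205 and 55.3 CPM, the largest difference of the ring at 6.06-fold. Psmc4 (Rpt3) was at 287, 207, 211 and 54.1 CPM. In that gene lymphomas 2 and 3 were nearly level, and lymphoma 4 was far below both. Psmc6 (Rpt4) was at 282, 204, 113 and 65.1 CPM, with a wide step between lymphomas 2 and 3. Psmc2 (Rpt1) and Psmc5 (Rpt6) were just under 4-fold apart between lymphomas 4 and 1, by -1.93 and -1.97 log2. Among the other base subunits Psmd1 (Rpn2), a scaffold, was at 315, 237, 159 and 86.1 CPM, and the ubiquitin receptor Psmd4 (Rpn10) differed by -1.53 log2. Psmd2 (Rpn1), the other scaffold, was an exception at 228, 194, 252 and 159 CPM, with its highest value in lymphoma 3 and a range under 2-fold.

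The lid, which holds the deubiquitinase of the particle, had a median difference of -1.83, and its 8 genes were lowest in lymphoma 4, Psmd11 not so with plain library totals. Psmd3 (Rpn3) had both the highest mean and the widest spread, at 510.0, 382, 317 and 90.6 CPM. Psmd13 (Rpn9) was at 326, 248, 188 and 66.8 CPM, and Psmd6 (Rpn7) at 232, 166, 122 and 53.5 CPM. These 3 genes differed 4-fold or more between lymphomas 1 and 4, and 5 did not; with plain library totals or the length trend removed only Psmd3 did. Psmd14 (Rpn11), the deubiquitinase itself, differed by -1.92 log2 between lymphomas 4 and 1, its partner Psmd7 (Rpn8) by -1.58, Psmd8 (Rpn12) by -1.70 and Psmd12 (Rpn5) by -1.74. Psmd11 (Rpn6), which clamps core and lid together, was at 93.7, 73.9, 100.5 and 62.9 CPM, a 1.48-fold difference. Psmd2 and Psmd11 were the 2 genes of the 31 in core and 19S particle with a range under 2-fold. Both have transcribed or processed copies in the annotation, at 96.4% identity for Psmd2 (Gm5422) and 98.0% for Psmd11 (Gm14048), and the part of shared reads was not tested.

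**Figure D5:**
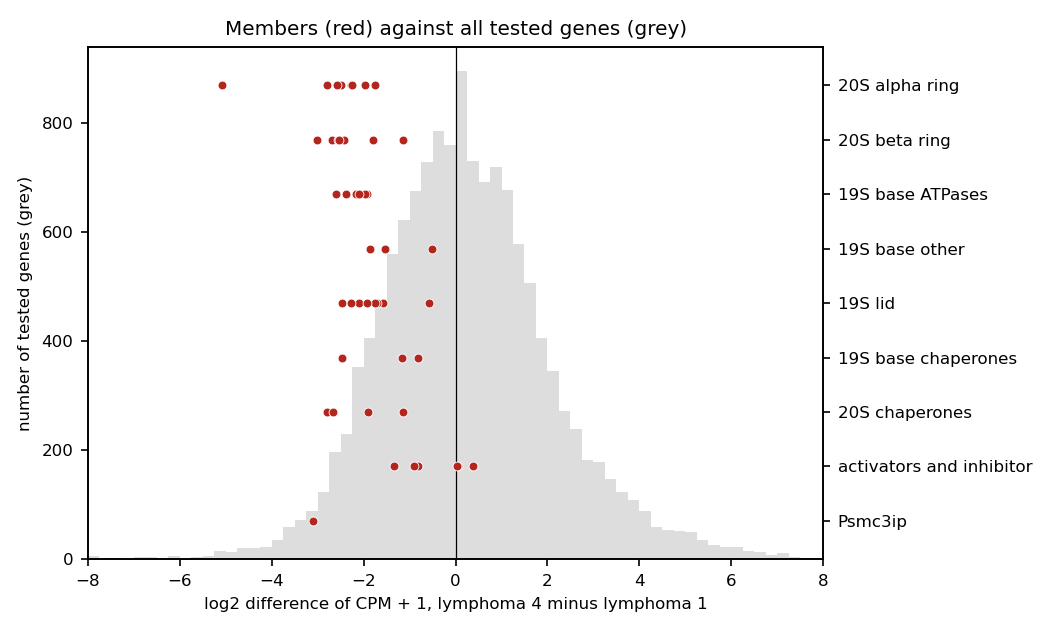
Difference of lymphoma 4 from lymphoma 1, as log2 of CPM + 1, for all 13543 tested genes (grey histogram, left axis) and for the proteasome genes by part of the particle (red points, right axis). The core and 19S points lie between -3.02 and -0.52 apart from Psma8, and the activators and inhibitor lie between -1.35 and 0.38.

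The assembly factors of the 20S core had a median difference of -2.28 log2 between lymphomas 4 and 1. Psmg1, which pairs with Psmg2 to start the alpha ring, was the most abundant and the most spread at 127, 80.4, 45.6 and 17.5 CPM, 6.93-fold higher in lymphoma 1 than in lymphoma 4. Psmg3 was at 61.1, 39.0, 34.2 and 8.80 CPM, and it shares 237 exonic bases with Gm26938 on the same strand. Psmg2 and Psmg4 differed less, by -1.90 and -1.15 log2, and Psmg4 by -0.68 with plain library totals and -0.25 with the length trend removed. All 4 genes were lowest in lymphoma 4. Of the chaperones of the 19S base, Psmd9 was at 63.0, 44.3, 54.9 and 10.6 CPM, with lymphoma 4 alone far below. Psmd5 had the highest mean, at 95.5, 83.2, 40.4 and 53.5 CPM, and was lowest in lymphoma 3. Psmd10, which encodes gankyrin, differed by -1.16 log2 between lymphomas 4 and 1, but by -0.69 with plain library totals and -0.56 with the length trend removed, under 2-fold in both.

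Activators and the inhibitor were the part of the set where libraries differed least as scaled here, with a range of 2-fold or more in 1 of 6 genes (75.6% of all genes). That gene was Psme3, the nuclear activator PA28 gamma, at 393, 304, 333 and 154 CPM, a mean of 296 ± 102 CPM (SD, n = 4). Its difference between lymphomas 4 and 1 was -1.35 log2 as scaled here, but -0.87 with plain library totals. Psme1 and Psme2, the interferon-responsive PA28 alpha and beta, were at 264, 232, 332 and 274 CPM and at 235, 193, 143 and 133 CPM. Psme1 was lowest in lymphoma 2 and highest in lymphoma 3, unlike the core genes. Its difference between lymphomas 4 and 1 was 0.06 log2 as scaled here, 0.53 with plain library totals and 0.95 with the length trend removed, and that of Psme2 was -0.81, -0.33 and 0.08, so neither is given a direction. Psme2b is 99.4% identical to Psme2 over 794 bases, and reads of the pair cannot be assigned with certainty. It was at 20.8, 21.3, 15.0 and 21.2 CPM. Psme4, the activator PA200, had its highest value in lymphoma 4 at 68.1, 67.8, 44.9 and 88.7 CPM, but the difference of 0.38 log2 from lymphoma 1 became -0.44 with the length trend removed, its exonic length being 6491 bases. Psmf1, the inhibitor PI31, differed by -0.90 log2 between lymphomas 4 and 1. That became -0.42 with plain library totals and -1.20, over 2-fold, with the length trend removed.

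Psmc3ip, which enters by its symbol and acts with Mnd1 in meiotic recombination, had a pattern of its own. It held 171, 176, 674 and 15 counts, or 21.6, 19.6, 66.1 and 1.65 CPM. It thus peaked in lymphoma 3 and was at its bottom in lymphoma 4, the ratio between them being 40.1 (counting interval 24.1 to 72.1). The order of lymphoma 3 above 1 and lymphoma 4 lowest is also that of the summed proliferation genes. Psmc3ip shares 385 of its 1291 exonic bases with Mlx on the other strand.

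Proteasome genes outside the symbol rule, from a list drawn up with the members, went the same way. Of 8 such genes, 7 were lowest in lymphoma 4 (33.2% of all genes) and 6 were 2-fold or more higher in lymphoma 1 than in lymphoma 4 (24.6%), with a median difference of -1.61. Among all genes with a mean of 50 CPM or more these shares were 47.9% and 36.4%. Pomp, the maturation factor that closes the core, was at 337, 249.6, 211 and 60.8 CPM. The gene not lowest in lymphoma 4 was Ecpas, which encodes an adaptor that holds core and cap together, at 84.4, 107, 126 and 119 CPM. Of 15 ubiquitin and delivery genes, 9 were lowest in lymphoma 4, against 33.2% of all genes and 47.9% of those with a mean of 50 CPM or more. In this list 4 were at least 2-fold higher in lymphoma 1 than in lymphoma 4, near the background of 24.6%. Rps27a, a ubiquitin fusion with a ribosomal protein, was at 3700.2, 2620.5, 2394 and 948 CPM, again lowest in lymphoma 4.

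Of 12 regulators of proteasome genes, 3 were at least 2-fold higher in lymphoma 1 than in lymphoma 4 and 4 the reverse, both near the shares of all genes (24.6% and 31.2%). Vcp, the segregase that extracts substrates, had the highest mean at 813, 608, 479 and 281 CPM, and Maff, a small Maf partner, the largest spread at 8.59, 10.1, 0.883 and 1.65 CPM. Nfe2l1 encodes NRF1, a factor that raises proteasome genes when the proteasome is inhibited, after cleavage by the protease DDI2. Both genes, chosen after their values were seen, were highest where most subunit genes were lowest. Nfe2l1 was at 29.9, 52.6, 79.4 and 125 CPM and Ddi2 at 9.22, 15.5, 12.4 and 39.0 CPM. Their exonic lengths are 4867 and 9553 bases, in the range where all genes had medians above 0 for this difference.

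NRF1 binds antioxidant response elements, so the promoters were searched for the core TGACNNNGC on both strands, in the 250 bases before the start in RefSeq (GRCm38.p6), a window that 39 of the 47 genes had. It was found in 5 of 39, or 12.8%, and in 11.5% of the 27025 genes of the table, so the share was near the background. The CCAAT box, letters CCAAT on both strands, was found in 14 of 39 (35.9%) and in 37.5% of all genes. The motifs were searched separately, and 0 of the 39 genes held both. The 5 genes with the element core were Psmb5, Psmb6, Psmc6, Psmd9 and Psmd12. Stretches of 100 bases, 5′ to 3′ on the plus strand, are shown for the 3 with the highest mean level, the element in capitals: Psmb6 because it had the largest difference of the 31 genes as scaled here (chr11:70525257-70525356), Psmc6 (chr14:45329574-45329673) and Psmd12 (chr11:107479278-107479377) for comparison.
Psmb6: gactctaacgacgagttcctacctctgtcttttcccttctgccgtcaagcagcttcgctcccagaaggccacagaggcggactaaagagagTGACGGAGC
Psmc6: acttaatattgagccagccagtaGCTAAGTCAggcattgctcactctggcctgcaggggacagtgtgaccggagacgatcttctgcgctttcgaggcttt
Psmd12: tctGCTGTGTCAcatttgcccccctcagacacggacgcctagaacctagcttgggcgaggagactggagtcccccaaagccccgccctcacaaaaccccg
In Psmb6 the element ends at the base before the start, and in Psmc6 and Psmd12 it lies on the other strand, at positions -227 and -247 from the start. The 3 genes differed by -3.02, -2.10 and -1.74 log2 between lymphomas 4 and 1, against a median of -2.10 for core and 19S particle, so 1 lay below it, 1 at it and 1 above it.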

How the data were processed

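Poly(A) RNA of 4 mouse spleen lymphoma samples was analysed as 1 group. The authors deposited gene counts (STAR 2.4.2a, mm10) and a table read as FPKM (Cufflinks 2.2.1), tools and build being named in the submitters' processing notes. The FPKM reading is from the values, since that file states no unit. The annotation, strand setting and filters behind both were not given in the sources used here. Of the FPKM columns, 5 match no sample and were left unused. In the counts, 26 rows with gene names turned into dates (0.191 to 0.201% of counts) were left out. CPM used edgeR 4.0.16 TMM factors (R 4.3.3) on genes that reached 1 CPM, by library total, in any library; differences are of log2(CPM + 1), a pseudocount that understates changes of low genes. Exonic lengths (all basic-set exons of a gene merged) and positions are from GENCODE M21 (GRCm38), matched for 24449 symbols. Copies were searched with BLAST 2.17.0. The alternatives were DESeq2 1.42.0 size factors, plain library totals, no filter, a pseudocount of 0.25 CPM, FPKM, removal of the length trend in 10 bins, and leaving out each library. The rules were tested on simulated data. The members and lists were chosen with earlier results of these data known. Values are given for the catalytic genes and their counterparts, for members with a range of 4-fold or more or under 1 CPM throughout, and for the highest mean and largest spread in each part of the particle and each list of other genes; others are in counts or single differences, and 1 gene of these lists is not reported here. Protein sequences were not used here.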

Additional observations from a re-analysis of the deposited data

Results flagged for a closer look

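Of 53 series of 4 values examined (50 genes and 3 catalytic ratios), 3 held an outlying library. There the gap to the nearest other library took up more of the whole range than Dixon's 95% critical value. Chance gives about 1 in 20, near the share of 3 in 53. Gaps were taken on untransformed CPM and ratios and are not given on a log scale. Psmb9 over Psmb6 per exonic kilobase had its outlying value in lymphoma 4, with a gap of 0.921 of the range. Psmb10 over Psmb7 had it in the same library, with a gap of 0.910 of the range. Psme2b had it in lymphoma 3, at 15.0 CPM against 20.8 to 21.3 CPM elsewhere, with a gap of 0.928 of the range, and this gene is 99.4% identical to Psme2.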

How the results depend on the processing

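The number of genes lowest in lymphoma 4 was 39 to 43 over the scalings, filters, FPKM, length removal and left-out libraries 1, 2 or 3. The share of all genes was 27.0 to 44.4% over these settings except no filter. With no filter it was 19.3%, since genes at 0 in every library were not counted as lowest in lymphoma 4. Among genes of mean 50 CPM or more, a filter chosen after seeing the data, it was 34 of 37 members (47.9% of all). With each library left out in turn, the number of genes with a 2-fold range went from 12 (without lymphoma 4) to 40 (without lymphoma 2), and their median range from 0.76 (without lymphoma 4) to 1.996 log2. The counts without lymphoma 2 of genes highest in lymphoma 1 or 2-fold above lymphoma 4 were added after seeing the data. The number of genes highest in lymphoma 1 is not given for the other scalings, and in FPKM some of them peaked in lymphoma 3. A 4-fold rule gave 22 genes, fewer by construction. Without the 19 members that share sequence with another gene, a choice made after seeing the data, 25 of 27 were lowest in lymphoma 4 (33.2% of all genes) and 25 had a 2-fold range (75.6%). In FPKM the medians of lymphomas 1, 2 and 4 were 7.04, 6.80 and 5.07 log2(FPKM + 1), on another scale than CPM, and log2 of Psmb8 over Psmb5 was 0.47, 0.58, 0.076 and 2.59; the cause of that gap was not tested. Plain library totals moved the median difference of lymphoma 4 from lymphoma 1 over all genes from 0.12 to 0.51 log2 and left 34 members at least 2-fold higher in lymphoma 1. Counting error limits Psma8 in lymphomas 3 and 4 (4 and 1 counts). No paired analysis was possible because the samples form 1 group.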
